A study of Mus musculus with 9 samples.

Results

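miR-7a-5p and miR-7b-5p are a pair of mature microRNAs (miRNAs) that share their seed, the stretch of bases 2 to 8 through which a miRNA recognises its target mRNAs. Both were found by name (mmu-miR-7a-5p and mmu-miR-7b-5p) in a table of small RNA read counts from the mouse embryonic cortex, as 2 of 1052 mature miRNAs. They were chosen by their own read counts, which earlier results of the same data had shown to be higher in each later population, so their levels, changes, ratio and sum are given as a description, with no test. The 9 libraries came from lateral cortex of C57BL/6 embryos at embryonic day 14.5, sorted by endogenous reporter fluorescence into 3 populations with 3 libraries each. Proliferating progenitors carried neither the R nor the G reporter, differentiating progenitors carried R without G, and newborn neurons carried G. Library totals ran from 821155 to 3856484 miRNA counts. The miRNA rows were mostly 5p arms (925, against 114 of 3p arms and 172 without a named arm). Shares of a library and ranks hold within these rows. The labels name no treatment and do not name the genes that drive the reporters. They do not say how many embryos went into a library or whether libraries of a population came from separate litters, so p-values measure the spread between these libraries, which may be technical.

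miRNAs guide Argonaute proteins to partly complementary sites in mRNAs, which lowers the output of those mRNAs. miR-7 is an old, highly conserved miRNA that is abundant in neurons and in endocrine cells of the pituitary and pancreas, and the mRNA of Pax6, a transcription factor of cortical progenitors, is among its described targets. In the brain its level and activity are known to be shaped by 2 noncoding RNAs: the circular RNA Cdr1as, which carries many miR-7 sites, and the long RNA Cyrano, which triggers the decay of miR-7. miR-671-5p belongs to the same network because it directs the cutting of Cdr1as.

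The mature sequences are shown first, because they decide how far reads of both members can be told apart. They were taken from RefSeq on GRCm38.p6 and are written 5′ to 3′, with the seed in capitals.
miR-7a-5p: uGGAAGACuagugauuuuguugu
miR-7b-5p: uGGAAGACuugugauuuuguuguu
Over the 23 bases of miR-7a-5p, counted from the 5′ end, both sequences differed at 1 position, given as A10U, with the base of miR-7a first. The annotated miR-7b-5p is 24 bases long and ends in an additional base. The seed GGAAGAC occurred in 2 of the 1679 mature mouse names in the RefSeq table, and these were miR-7a-5p and miR-7b-5p themselves. Of the 1052 names in the count table, 892 matched that table. The sum of both members, called the miR-7 pool here, is therefore the pool of this seed as far as those names show.

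The pair comes from 3 hairpin genes, and 2 of them make the same miR-7a-5p. Mir7-1 lies at chr13:58392779-58392886 on the minus strand, inside the protein-coding gene Hnrnpk on the same strand. All 12 annotated Hnrnpk transcripts that span it have it in an intron. Mir7-2 lies at chr7:78888277-78888373 on the plus strand, and Mir7b at chr17:56242988-56243098 on the plus strand. Neither overlaps another gene in the GENCODE M21 annotation of GRCm38, the assembly also called mm10. The hairpins are shown as DNA with the mature 5p arm in capitals, because the bases next to that arm are what separates the genes.
Mir7-1: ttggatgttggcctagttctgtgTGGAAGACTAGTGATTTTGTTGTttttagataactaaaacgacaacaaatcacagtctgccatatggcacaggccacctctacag
Mir7-2: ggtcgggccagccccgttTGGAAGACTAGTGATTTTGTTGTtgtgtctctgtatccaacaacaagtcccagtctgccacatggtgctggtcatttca
Mir7b: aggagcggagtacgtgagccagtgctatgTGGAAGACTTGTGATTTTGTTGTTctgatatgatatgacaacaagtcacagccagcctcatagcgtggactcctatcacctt
Between Mir7-1 and Mir7-2, 0 bases before the arm and 1 base after it were identical before the first difference. A read of miR-7a that starts at the annotated start and runs no further than that base matches both genes.

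The count table gave miR-7a-5p 2 rows, each tied to its own precursor by accession, and miR-7b-5p 1 row. The files used here do not pair those accessions with gene names, so the rows are called the larger and the smaller. The larger row held 3753, 3020 and 2943 counts in the proliferating libraries, and the smaller 3715, 2992 and 2919. The differentiating libraries had 7574, 6676 and 7201 against 7507, 6620 and 7122. The neuron libraries had 96604, 39141 and 26829 against 95556, 38710 and 26474. The rows thus mostly repeated the same reads, and the larger was used for miR-7a-5p. Its excess over the smaller row, as a share of its counts, was 0.918% ± 0.0988 at the start of the lineage, 0.940% ± 0.138 in the middle and 1.17% ± 0.133 in neurons (SD, n = 3 each). The highest progenitor value, 1.10%, lay within the neuron range of 1.08% to 1.32%, so the populations overlapped. Which of both genes made the shared reads cannot be told from these rows. None of the 3 hairpins had its 3p arm among the counted miRNAs, so those arms could not be analysed.

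miR-7a-5p was the abundant member and was higher in each later population. Levels are given as counts per 1000000 (CPM), where each library's total is adjusted by edgeR's trimmed mean of M-values (TMM). Replicates 1 to 3 of the proliferating progenitors held 2845, 3087 and 3852 CPM of miR-7a-5p, with a mean of 3262 ± 526 (SD, n = 3). The differentiating progenitors held 5408, 5880 and 5126 CPM, with a mean of 5471 ± 381 (SD, n = 3). The newborn neurons held 24861, 20650 and 20616 CPM, with a mean of 22043 ± 2441 (SD, n = 3). No library of one population reached the range of another: the lowest differentiating progenitor was 1.33 times the highest proliferating progenitor, and the lowest neuron library was 3.51 times the highest differentiating progenitor. Of the 188 miRNAs that passed the filter on low counts, as both members did, 13.8% were likewise higher without overlap from the first population to the second, 27.1% from the second to the neurons and 32.4% from the first to the neurons. The members were chosen for these contrasts, so nothing is read from those shares. As a share of all miRNA counts it took 0.279% to 0.358%, 0.483% to 0.590% and 2.08% to 2.51% of a library in the order of the lineage, with 95% Wilson half-widths of at most 0.0297 percentage points. By mean CPM it ranked 21, then 17, then 5 among the 1052 miRNAs, of which 560 had any count. These are shares of a library, not amounts per cell, and in bulk libraries fewer cells that hold a miRNA and less of it in each cell cannot be told apart.

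miR-7b-5p was far scarcer and changed by a larger factor. Its counts were 50, 30 and 24 in the proliferating libraries, 152, 174 and 213 in the differentiating ones and 4971, 2110 and 1411 in the neuron libraries. This was 37.9, 30.7 and 31.4 CPM in the first population, 33.3 ± 3.98 (SD, n = 3). In the second it was 109, 153 and 152 CPM, 138 ± 25.4 (SD, n = 3). In neurons it was 1279, 1113 and 1084 CPM, 1159 ± 105 (SD, n = 3). Again no population overlapped another: the lowest differentiating progenitor was 2.86 times the highest proliferating progenitor, and the lowest neuron library 7.08 times the highest differentiating progenitor. Its rank moved from 114 through 69 to 35. In proliferating progenitors its coefficient of variation between libraries was 11.9%, below the 17.6% that counting alone would give at these counts, so at this depth no difference among those 3 libraries was detectable. For miR-7a-5p the corresponding values were 16.1% and 1.77%, and its libraries differed by more than counting error.

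**Figure D1:**
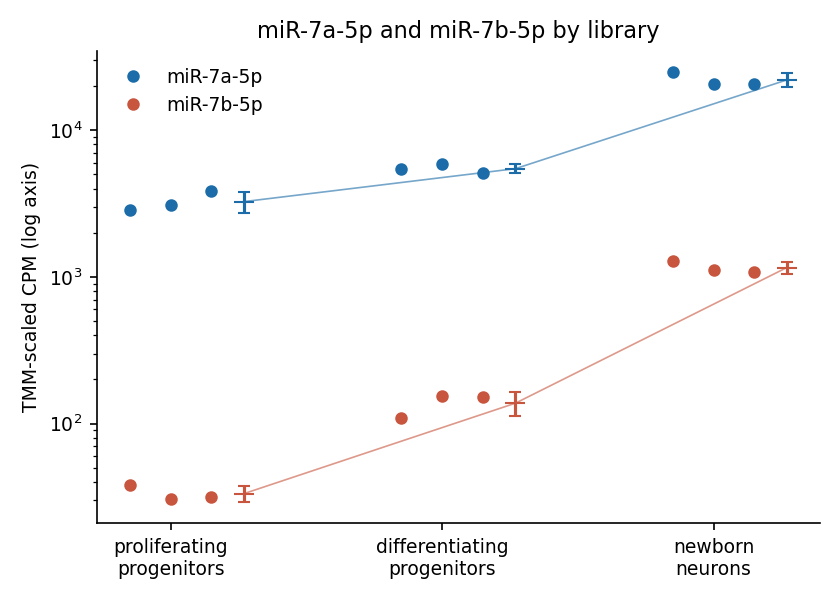
Level of miR-7a-5p (blue) and miR-7b-5p (red) in each of the 9 libraries, as TMM-scaled CPM on a log axis; points are libraries and the bars to their right are mean ± SD of 3 libraries. miR-7a runs from 3262 through 5471 to 22043 CPM on average and miR-7b from 33.3 through 138 to 1159 CPM, with no overlap between populations.

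Summed over all lists, markers of other cell types were highest in the population where miR-7 was lowest. The 13 rows of erythroid, endothelial, haematopoietic and mural or mesenchymal miRNAs summed to 0.0835% to 0.0906% of the counts of a proliferating library, 0.00764% to 0.00910% of a differentiating one and 0.00497% to 0.00560% of a neuron library. On total-scaled counts the erythroid pair miR-451a and miR-144-5p gave 242 to 329 CPM among proliferating progenitors and at most 2.91 CPM elsewhere, with miR-144-5p at 0 in all 3 neuron libraries. The 5 mural or mesenchymal rows, nearly all of them miR-143-3p, gave 436 to 538 CPM there and at most 40.9 CPM elsewhere. miR-214-5p, the only counted arm of miR-214, was at 0 throughout. The 5 haematopoietic rows gave 43.8 to 54.5, 21.1 to 37.1 and 8.51 to 10.3 CPM along the lineage, with miR-142a-5p, miR-150-5p and miR-223-5p at 0 in neurons. Among them miR-146a-5p went against the sum at the first step, with 5, 12 and 4 counts in the proliferating libraries, 13, 19 and 26 in the differentiating ones and 3, 2 and 2 in the neuron libraries. The endothelial miR-126a-5p gave 16.6 to 24.4, 11.4 to 12.4 and 5.32 to 15.0 CPM. The part of these cells in the values of miR-7 was not tested. miR-375-5p, from an endocrine miRNA gene, had 0 counts in all 9 libraries. The 3p arm of miR-375 was not among the counted miRNAs, so nothing is read from this on endocrine cells. Apart from miR-143-3p and miR-451a, which names no arm, every marker row was a 5p arm. The levels of their 3p arms are not known here. The neural miR-9-5p, miR-124-5p and both miR-128 5p rows made up 62.6% to 69.0% of every library, nearly all of it miR-9-5p.

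From proliferating to differentiating progenitors, called the first step here, the log2 change of the edgeR fit was 0.75 (SE 0.14) for miR-7a-5p, a 1.68-fold difference, and 2.03 (SE 0.20) for miR-7b-5p, a 4.08-fold difference. From differentiating progenitors to newborn neurons, the second step, it was 2.01 (SE 0.14, 4.03-fold) for miR-7a-5p and 3.07 (SE 0.18, 8.42-fold) for miR-7b-5p. Over the whole lineage the changes were 2.76 (SE 0.15, 6.76-fold) and 5.10 (SE 0.21, 34.4-fold). Both steps share the differentiating progenitor libraries. The median log2 change over the 188 tested miRNAs was 0.08, -0.06 and -0.05 in these 3 comparisons. edgeR called 16.0%, 46.3% and 56.4% of the 188 in either direction, and 7.98%, 23.9% and 29.8% higher. Here too nothing is read from those shares.

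The second step carried most of the change of each member. On the log2 scale it held 72.9% of the whole-lineage change of miR-7a-5p and 60.2% of that of miR-7b-5p. In CPM it held 88.2% and 90.7% of the gain. Ranked by log2 change among the 188 miRNAs, miR-7b-5p was at place 6 in the first step, 4 in the second and 2 over the lineage. miR-7a-5p was at places 20, 11 and 13.

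Ranked by the gain in share of counts instead of the factor, miR-7a-5p came first at the second step and over the lineage. With libraries scaled to total counts its mean went from 5414 to 23672 CPM at the second step, a gain of 18258 CPM. That was the largest gain among the 1052 miRNAs, mostly 5p arms, of which 560 had any count. It made up 35.4% of the sum of their gains at that step. Gains of arms that were not counted are not part of these shares. The next gain was that of miR-9-5p, the most abundant miRNA of these libraries, with 14991 CPM on a mean of 638188, while its log2 change on the TMM scale was -0.08 and was not called (SE 0.11, edgeR adjusted p = 0.603). Over the whole lineage miR-7a-5p held 39.8% of the sum of gains, followed by let-7g-5p with 7.69% and miR-181a-5p with 6.11%. At the first step it ranked 5, with 5.82%, behind let-7c-5p, miR-99a-5p, let-7i-5p and miR-26a-5p. miR-7b-5p accounted for 2.15% of the gains at the second step.

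**Figure D2:**
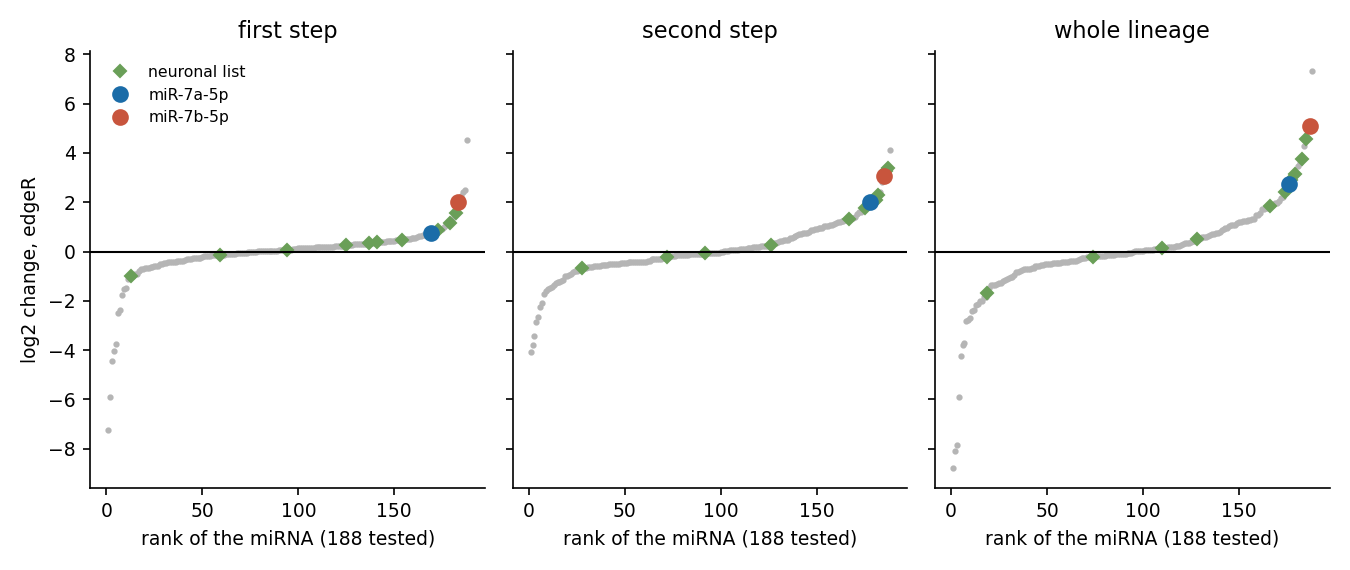
log2 change of each of the 188 tested miRNAs ordered from lowest to highest, for the first step, the second step and the whole lineage; grey points are single miRNAs, green diamonds the tested members of the neuronal list, and large circles miR-7a-5p (blue) and miR-7b-5p (red). miR-7b lies at places 6, 4 and 2 from the top and miR-7a at places 20, 11 and 13.

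The ratio within a library does not depend on how libraries are scaled. It does carry any difference in ligation or amplification between both sequences, which was not measured. For every 100 counts of miR-7a-5p the proliferating libraries held 1.33, 0.993 and 0.815 counts of miR-7b-5p. The differentiating libraries held 2.01, 2.61 and 2.96, and the neuron libraries 5.15, 5.39 and 5.26. The means were 1.05 ± 0.263, 2.52 ± 0.481 and 5.27 ± 0.123 (SD, n = 3 each), and no library overlapped another population. The mean log2 ratio was higher by 1.28 after the first step and by 1.08 after the second, against combined SDs of 0.46 and 0.29, and by 2.36 over the lineage (combined SD 0.36), a 5.13-fold difference. miR-7a-5p thus outnumbered miR-7b-5p by 75.1 to 123 times at the start of the lineage, 33.8 to 49.8 times in its middle and 18.6 to 19.4 times in neurons.

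The counting error of the ratio differed between populations, as the counts of miR-7b-5p did. miR-7b-5p made up 1.31% of the pool in proliferating progenitor replicate 1 (95% Wilson interval 0.999% to 1.73%) and 0.809% in replicate 3 (0.544% to 1.20%), and these intervals overlap. In differentiating progenitors the lowest share, 1.97% (1.68% to 2.30%), and the highest, 2.87% (2.52% to 3.28%), had intervals that did not meet. In neurons the 3 shares ran from 4.89% to 5.12%, and the intervals of all 3 overlapped. The neuron libraries, with the most counts of miR-7b-5p, were thus also the closest to each other. PCR copies of a read are not separate molecules, so the intervals hold for counting error alone.

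How many mismatches the counting allowed is not given in the sources used here, and both members differ at 1 position in their shared 23 bases. Over the 9 libraries the counts of miR-7b-5p ran from 0.815 to 5.39 per 100 counts of miR-7a-5p. In proliferating progenitors the counts of miR-7b-5p (50, 30 and 24) were close to the number by which the miR-7a rows differed (38, 28 and 24). In neurons they were 4971, 2110 and 1411 against 1048, 431 and 355. The number by which the miR-7a rows differ is not a count of misassigned reads. The part of misassigned reads in the counts of miR-7b-5p, the lowest among them, was not tested.

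**Figure D3:**
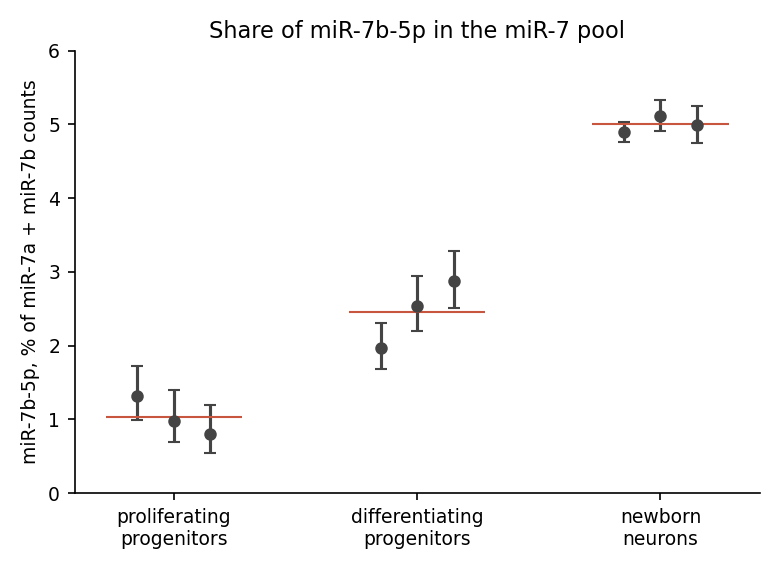
Share of miR-7b-5p in the summed counts of miR-7a-5p and miR-7b-5p in each library (points, in %), with 95% Wilson intervals; red lines are population means. The shares lie between 0.809% and 1.31%, then 1.97% and 2.87%, then 4.89% and 5.12%, with no overlap between populations.

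The pool followed miR-7a-5p, which supplied nearly all of it. The summed level was 2883, 3118 and 3884 CPM in the proliferating libraries, 5517, 6033 and 5278 in the differentiating ones and 26141, 21764 and 21701 in the neuron libraries, without overlap. Means were 3295 ± 523, 5609 ± 386 and 23202 ± 2545 CPM (SD, n = 3 each). In counts the pool made up 0.310% ± 0.0445, 0.555% ± 0.0543 and 2.49% ± 0.257 (SD, n = 3 each) of a library. That is about 1 in 277 to 1 in 355 counted miRNA reads in proliferating progenitors and 1 in 37.8 to 1 in 45.6 in neurons. The log2 change of the pool was 0.77 (SE 0.14) at the first step, 2.05 (SE 0.14) at the second and 2.82 (SE 0.15) over both, a 7.05-fold difference. The share of miR-7b-5p in it averaged 1.04% ± 0.257, 2.46% ± 0.458 and 5.00% ± 0.111 (SD, n = 3 each).

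Other miRNA pairs that share a seed gave a scale for the ratio. The less to more abundant member was compared for miR-135b-5p to miR-135a-5p, miR-26b-5p to miR-26a-5p and miR-99b-5p to miR-99a-5p, as a description. miR-26b stood at 4.23 ± 0.313, 3.65 ± 0.703 and 3.41 ± 0.660 per 100 counts of miR-26a (SD, n = 3 each) along the lineage, a log2 change of -0.33. miR-99b stood at 46.6 ± 6.64, 42.5 ± 5.45 and 63.8 ± 10.4 per 100 of miR-99a, a change of 0.45. miR-135b stood at 56.6 ± 17.7, 37.5 ± 8.15 and 98.6 ± 14.5 per 100 of miR-135a, a change of 0.84. Its log2 ratio went down by 0.57 at the first step and up by 1.41 at the second, while that of miR-7b to miR-7a went up at both. The whole-lineage change of 2.36 for miR-7 was the largest of these 4 pairs, which were few and not chosen at random.

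**Figure D4:**
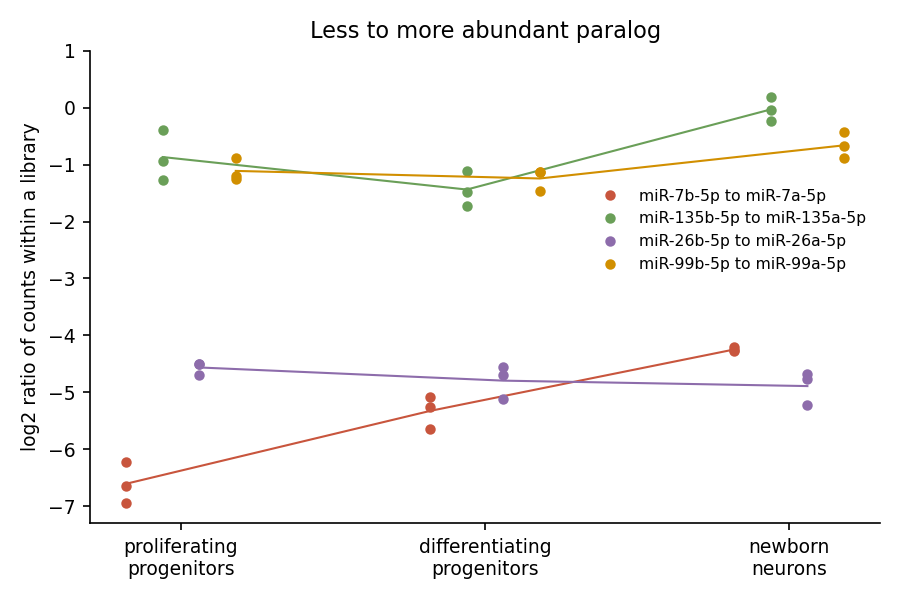
log2 ratio of the counts of the less to the more abundant member of 4 pairs of related miRNAs; points are the 9 libraries and lines join population means. The miR-7b to miR-7a ratio runs from -6.61 through -5.33 to -4.25, while the miR-26 pair changes by -0.33, the miR-99 pair by 0.45 and the miR-135 pair by 0.84 over the lineage.

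The miRNAs whose levels most resembled those of miR-7 were sought among the 90 other tested miRNAs with a mean of at least 100 CPM in some population. By Pearson correlation of log2 CPM over the 9 libraries, the closest to miR-7a-5p were miR-411-5p (0.98), miR-139-5p (0.97) and miR-135b-5p (0.97). For miR-7b-5p they were miR-541-5p (0.96), miR-139-5p (0.95) and miR-411-5p (0.95). The members correlated with each other at 0.98. All points share the 3 populations and the library totals, and a correlation ignores the size of a change: miR-411-5p, with 205 ± 38.8, 254 ± 15.9 and 498 ± 10.9 CPM (SD, n = 3 each), had a log2 change of 1.29 (SE 0.17) over the lineage, against 2.76 and 5.10 for the members.

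A measure that keeps the size of the change gave other names. It is the root mean square difference of log2 profiles, each centred on its own mean over the 9 libraries. Closest to miR-7a-5p were miR-382-5p (0.37), miR-434-5p (0.39) and miR-6540-5p (0.41). Closest to miR-7b-5p were miR-139-5p (0.65), miR-449a-5p (1.04) and miR-124-5p (1.06), the first of them nearer than miR-7a-5p itself (0.97). miR-139-5p had 4, 14 and 8 counts in the proliferating libraries, 23, 21 and 34 in the differentiating ones and 916, 399 and 236 in the neuron libraries. Its first-step change, 1.18, had an SE of 0.40, against 0.20 for that of miR-7b-5p. miR-382-5p averaged 48.8 ± 14.7, 74.5 ± 6.07 and 216 ± 62.2 CPM (SD, n = 3 each), a log2 change of 2.17 (SE 0.25) over the lineage. miR-382, miR-411, miR-434 and miR-541 belong to the imprinted miRNA genes of the Dlk1-Dio3 region.

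**Figure D5:**
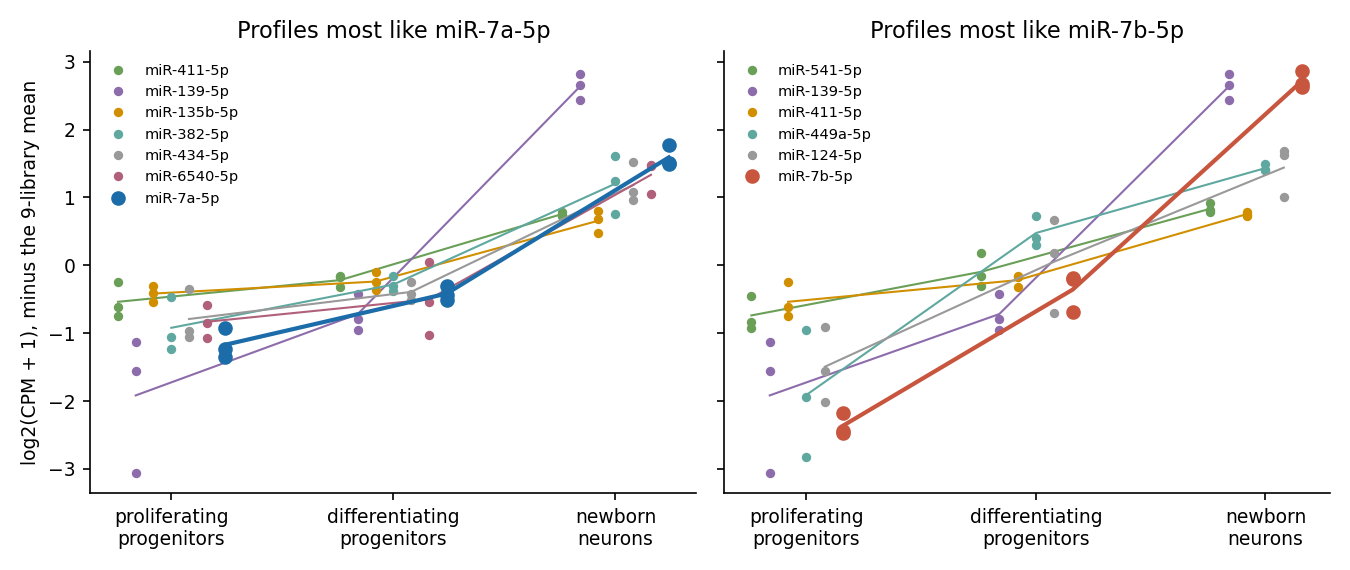
log2(CPM + 1) of miR-7a-5p (left) and miR-7b-5p (right) and of the miRNAs most like each, minus the mean over the 9 libraries; points are libraries and lines join population means. miR-382-5p, miR-434-5p and miR-6540-5p run closest to miR-7a, and miR-139-5p runs closest to miR-7b, at root mean square differences of 0.37, 0.39, 0.41 and 0.65.

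The wider set of brain miRNAs linked to neuronal differentiation held 13 names, of which 10 were tested and 1, miR-129b-5p, had no counts. The untested miR-137-5p and miR-153-5p had 12 and 3 counts over all libraries. None of the names was a 3p arm, and levels of 3p arms from the same hairpins are not given here. Calls and missing calls therefore hold for the named arms alone. At the first step edgeR called 1 of 10 higher and 1 lower, where 7.98% of the 188 miRNAs were called in each direction. At the second step 6 were called higher and 1 lower, against 23.9% and 22.3% of the 188, and over the lineage 7 and 1, against 29.8% and 26.6%. The median log2 change of the 10 was 0.36, 1.55 and 2.14 in the 3 comparisons, and that of all 188 was 0.08, -0.06 and -0.05. Calls here use edgeR's quasi-likelihood test with a Benjamini-Hochberg adjusted p under 0.05. The list was chosen with earlier results of these data known, so nothing is read from its calls or medians beside those of the 188.

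Of the listed miRNAs called higher, most were called at the second step, which also held most of the change of miR-7. miR-124-5p, partner strand of the neuronal miR-124-3p, was the only one called higher at the first step (log2 change 1.58, SE 0.33, edgeR adjusted p = 0.00238). It rose again at the second (1.32, SE 0.30, edgeR adjusted p = 0.00171). miR-139-5p rose by 3.40 at the second step (SE 0.29, edgeR adjusted p = 9.88e-08), and its first-step change missed the threshold (edgeR adjusted p = 0.0530) but passed it at 1.73 when proliferating replicate 2 was left out (edgeR adjusted p = 0.00861). miR-212-5p and miR-132-5p, which come from neighbouring hairpins that respond to neuronal activity, rose by 2.29 (SE 0.36) and 2.09 (SE 0.42) at the second step (edgeR adjusted p = 8.38e-05 and 0.000682). Both rested on at most 14 counts in any progenitor library. miR-138-5p, with at most 11 counts in any progenitor library, rose by 1.77 (SE 0.36, edgeR adjusted p = 0.000721). miR-128-2-5p, with at most 5 counts in any progenitor library, rose by 3.26 (SE 0.57, edgeR adjusted p = 0.000212). miR-129-5p went the other way and fell by 1.01 and 0.68 on the log2 scale at the steps (SE 0.18 each, edgeR adjusted p = 0.000875 and 0.00639). Its second-step call was lost without replicate 3 of the differentiating progenitors (log2 change -0.43, edgeR adjusted p = 0.0629). miR-218-5p was called higher over the lineage alone (0.51, SE 0.16, edgeR adjusted p = 0.0140). That call was lost when neuron replicate 1 was left out (0.39, edgeR adjusted p = 0.104), and a second-step call was gained when neuron replicate 3 was (0.44, edgeR adjusted p = 0.0326). miR-128-1-5p, with 130 counts over all libraries, and miR-9-5p were not called in any of the 3 comparisons. However, miR-9-5p was called lower at the first step when neuron replicate 3 was left out (-0.17, edgeR adjusted p = 0.0419). That call made 2 of the list lower there.

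miR-671-5p, the miRNA that directs the cutting of Cdr1as, showed no called change along the lineage. Its counts were 21, 21 and 10 in the proliferating libraries, 29, 23 and 31 in the differentiating ones and 52, 35 and 27 in the neuron libraries. In CPM this was 16.8 ± 4.26, 21.0 ± 0.943 and 17.5 ± 3.77 (SD, n = 3 each), and the populations overlapped. The log2 changes were 0.31 (SE 0.29), -0.30 (SE 0.27) and 0.01 (SE 0.29), and none was called (edgeR adjusted p = 0.500, 0.385 and 0.982). Beside these stand the first-step and second-step changes of miR-7a-5p, 0.75 (SE 0.14) and 2.01 (SE 0.14), with no test between both miRNAs.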

How the data were processed

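Total RNA of sorted cells went into a NEBNext small RNA library kit, per the labels' protocols. The authors deposited whole-number read counts, not normalised, with 1 column per library. The submitters' processing notes name mm10, bcl2fastq 1.8.2 and DESeq2 without a role. The aligner, the counter and the miRNA database release are not given in the sources used here. Of 1433 rows, 222 had no accession and were left out. The others were 925 rows of 5p arms, 114 of 3p arms and 172 that name no arm. The row with the largest total was kept per mature name, and names with at least 50 counts that differed by at most 2% were merged. Library totals over the resulting 1052 miRNAs ran from 821155 to 3856484, which is not the sequencing depth.

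edgeR 4.0.16 in R 4.3.3 (filterByExpr, TMM, glmQLFit, glmQLFTest, all 9 libraries, no covariate) tested 188 miRNAs, with Benjamini-Hochberg adjustment. The procedure was tested on simulated data. Pool values came from a fit with the summed row, scaled by the same factors. Members and lists were chosen with earlier results of these data known. Named miRNAs were the members, the 3 closest by each measure of likeness, miR-9-5p and the listed miRNAs. Alternatives covered scaling, filter, tool, replicate block, rows used and each library left out.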

Additional observations from a re-analysis of the deposited data

How the results depend on the processing

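The log2 changes of miR-7a-5p, miR-7b-5p and their pool, and the change of their ratio, kept their direction in every alternative run and moved by less than the combined SD of the log2 values of both populations. Some moves exceeded the SE of the fit. Total counts without miR-9-5p gave second-step changes of 2.19 for miR-7a-5p, 3.26 for miR-7b-5p and 2.23 for the pool, and total counts gave lineage changes of 2.95 for miR-7a-5p and 3.01 for the pool. Without proliferating replicate 3 the first-step change of miR-7a-5p was 0.89. With 1 library left out at a time, the first-step change was 0.66 to 0.89 for miR-7a-5p, 1.93 to 2.17 for miR-7b-5p and 1.12 to 1.47 for their ratio. The second-step change was 1.90 to 2.14, 2.95 to 3.22 and 0.92 to 1.20 in the same order. The number of miRNAs called at the first step, 30, was 18 to 37 with 1 library left out, lowest without replicate 1 of the proliferating progenitors. It was 19 with the rows without an accession. With every precursor row kept as its own entry, 68 rows were called, which is not a number of miRNAs. Keeping every precursor row counts repeated reads several times, and for the other settings the cause was not tested. At the second step 45 miRNAs were called higher and 42 lower, and with total counts without miR-9-5p 49 and 26. Total counts moved the median log2 change over the lineage from -0.05 to 0.13.

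The labels give the replicate numbers no meaning beyond a name, so they were not used as pairs. Deviations of same-numbered libraries correlated at -0.07 to 0.25, over 0.1 in 4 of 9 pairs, against -0.26 to 0.12 and 1 of 18 for other pairs. In both other populations, 2 of 9 libraries matched their own number best. Same-numbered proliferating and neuron libraries correlated at -0.061, -0.068 and -0.066. Same-numbered pairs with a differentiating library correlated at 0.021 to 0.25. A shared day or litter is not settled. With the replicate block 33, 88 and 108 miRNAs were called in the 3 comparisons, against 30, 87 and 106, and the changes of miR-7a-5p were 0.75, 2.01 and 2.76.

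Alternatives for the other miRNAs and pairs were added after the data were seen. Uncalled changes near 0 turned sign in some. That of miR-9-5p at the second step was 0.033 with total counts, 0.10 with total counts without miR-9-5p and 0.018 with rows without an accession, and ran from -0.13 to 0.068 with 1 library left out. That of miR-671-5p over the lineage was -0.0035 with the replicate block and ran from -0.12 to 0.21 with 1 library left out. With 1 library left out the first-step changes ran from -0.17 to 1.21 for miR-128-2-5p, from -0.013 to 0.70 for miR-132-5p and from -0.28 to 0.31 for miR-138-5p, and the lineage change of miR-128-1-5p from -0.016 to 0.48. The first-step call of miR-139-5p was gained in 4 alternatives (total counts, no filter, DESeq2 and without replicate 2 of the proliferating progenitors), which made 2 of the neuronal list called higher there. Without neuron replicate 3, miR-9-5p was called lower at the first step (log2 change -0.17, edgeR adjusted p = 0.0419) and miR-218-5p higher at the second (0.44, edgeR adjusted p = 0.0326), and the lineage call of miR-218-5p was lost without neuron replicate 1 (log2 change 0.39, edgeR adjusted p = 0.104).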
